A study of Mus musculus with 12 samples.

Results

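The mitochondrial genome of the mouse carries 37 of the 49671 genes counted here, and all 37 are described: 13 that encode protein, 2 ribosomal RNAs (rRNAs) and 22 transfer RNAs (tRNAs). They were taken by chromosome alone, as every gene annotated on MT. The libraries hold RNA of regulatory T cells (Tregs), CD4 T cells that restrain immune responses, from C57BL/6 mice aged 8 weeks. The mice were Gclc mutants or wild type (WT). Gclc encodes the catalytic subunit of the enzyme that starts glutathione synthesis. The 4 groups, each of 3 libraries, were mutant iTregs, WT iTregs, mutant nTregs and WT nTregs. The iTregs were made in culture from naive CD4 T cells, and the nTregs were sorted from the animal. The sources used here name neither the mutant allele nor any Cre driver.

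Mitochondrial DNA is transcribed from both strands into long precursors, in which tRNAs stand between most of the mRNAs and rRNAs and are cut out to release them. The 13 proteins are core subunits of respiratory complexes I, III and IV and of ATP synthase (complex V), and all their partner subunits are encoded in the nucleus and imported. Transcription depends on the polymerase Polrmt with Tfam and Tfb2m, all nuclear-encoded, and most mitochondrial mRNAs carry short poly(A) tails.

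On the strand printed in the files 28 of the 37 genes read forward (plus), while mt-Nd6 and 8 tRNAs read in reverse (minus). The base composition of the mRNAs differs by strand. G makes up 28.1% of mt-Nd6, against 5.88% to 16.1% of the 12 plus-strand mRNAs. The first 120 bases of mt-Nd6 (chrM:13951-14070, minus strand) and of its neighbour mt-Cytb (chrM:14145-14264, plus strand; GRCm38, GENCODE transcripts) show the contrast, with G in capitals. They are printed because these 2 genes carried the largest fold change and the smallest adjusted p among the mRNAs in mutant iTregs.
mt-Nd6: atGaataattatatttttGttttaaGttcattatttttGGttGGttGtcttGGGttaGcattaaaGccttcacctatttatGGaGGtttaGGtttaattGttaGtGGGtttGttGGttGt
mt-Cytb: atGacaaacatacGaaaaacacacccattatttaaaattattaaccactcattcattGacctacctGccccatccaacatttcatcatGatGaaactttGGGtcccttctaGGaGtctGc

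The libraries were made with a kit for mRNA, so the 3′ ends of these RNAs bear on how they were captured. The tails themselves were not measured. As annotated, 10 of the 13 mRNAs end in a whole TAA or TAG. The other 3 (mt-Cytb, mt-Co3 and mt-Nd4) end in a lone T that the poly(A) tail completes to a stop codon. Whether the RNAs end where the annotation does was not measured. The last 30 annotated bases of 3 mRNAs follow, with the final codon or its lone base in capitals: mt-Cytb (chrM:15259-15288, plus), mt-Nd2 (chrM:4922-4951, plus) and mt-Nd6 (chrM:13552-13581, minus).
mt-Cytb: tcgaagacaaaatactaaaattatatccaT
mt-Nd2: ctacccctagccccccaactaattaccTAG
mt-Nd6: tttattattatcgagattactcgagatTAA

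The tRNAs that passed a genotype test were mt-Ti, mt-Tc and mt-Tp, for isoleucine, cysteine and proline, and the 3 with the highest mean counts were mt-Td, mt-Tw and mt-Tl1, for aspartate, tryptophan and leucine. The genes mt-Ta and mt-Tn, for alanine and asparagine, had no count in WT nTregs. Their sequences, with the anticodon in capitals, show how short these targets are. On the plus strand lie mt-Ti (chrM:3706-3774), mt-Td (chrM:6942-7011), mt-Tw (chrM:4950-5016) and mt-Tl1 (chrM:2676-2750). On the minus strand lie mt-Tc (chrM:5192-5257), mt-Tp (chrM:15356-15422), mt-Ta (chrM:5018-5086) and mt-Tn (chrM:5089-5159).
mt-Ti: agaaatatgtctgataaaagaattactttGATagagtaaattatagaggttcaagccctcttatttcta
mt-Tc: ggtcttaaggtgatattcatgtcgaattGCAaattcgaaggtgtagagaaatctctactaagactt
mt-Tp: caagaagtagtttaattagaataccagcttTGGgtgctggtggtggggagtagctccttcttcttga
mt-Td: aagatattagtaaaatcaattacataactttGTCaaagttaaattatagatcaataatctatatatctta
mt-Tw: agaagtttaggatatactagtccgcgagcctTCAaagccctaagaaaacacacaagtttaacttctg
mt-Tl1: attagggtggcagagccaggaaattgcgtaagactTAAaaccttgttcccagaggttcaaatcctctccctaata
mt-Ta: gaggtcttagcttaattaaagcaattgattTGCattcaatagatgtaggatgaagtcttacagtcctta
mt-Tn: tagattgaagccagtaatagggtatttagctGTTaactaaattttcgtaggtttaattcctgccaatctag

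Libraries held 28707579 to 39886130 counts in all. Gclc was lower in mutant than in WT cells of both kinds (log2 fold change -1.46 ± 0.08 in iTregs, adjusted p = 1.64e-06, and -0.81 ± 0.07 in nTregs, adjusted p = 7.03e-05; SE, edgeR). The defining Treg marker Foxp3 was detected in every library, at 75.5 to 107 CPM (the counts-per-million scale) in mutant iTregs, 287 to 300.4 in WT iTregs, 135 to 217.5 in mutant nTregs and 559 to 611 in WT nTregs. The 7 Treg and CD4 T cell markers, Foxp3 among them, summed to 2653 to 2895 CPM in mutant iTregs and 2540 to 2754 CPM in WT iTregs. Their sums were 2671 to 3335 CPM in mutant nTregs and 3687 to 4059 CPM in WT nTregs. In 3 groups a library stood apart. The chi-square of counts per degree of freedom was 22.03 and 21.75 between iTreg mutant library 4 and the other 2 mutant iTreg libraries, which differed from each other by 6.41. For nTreg mutant library 1 these values were 41.1 and 47.2, against 11.1 between the other 2. For iTreg WT library 3 they were 13.75 and 10.81, against 4.20 between the other 2. Nothing in the labels ties the libraries to separate mice or cultures. All p-values therefore refer to the spread among these libraries, and that spread may be technical.

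Mitochondrial genes took between 4.10% and 6.02% of the counts of every library. Their share was 6.02%, 5.80% and 4.66% of counts in mutant iTregs (mean 5.49% ± 0.73, SD, n = 3), against 4.64%, 4.31% and 4.94% in WT iTregs (4.63% ± 0.31). It was 4.10%, 5.12% and 4.80% in mutant nTregs (4.67% ± 0.52), against 5.11%, 4.80% and 4.57% in WT nTregs (4.83% ± 0.27). Mutant and WT libraries overlapped in both cell types, and the 2 highest shares of all were those of mutant iTreg libraries 1 and 2. The share of nTreg WT library 2, the shallowest, had an exact Clopper-Pearson 95% interval of 4.79% to 4.81%, which covers counting error only. In bulk RNA, fewer cells of a type and less RNA per cell cannot be told apart.

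Nearly all of these counts fell on the mRNAs, and the order of their levels per length was alike in the groups. Per kilobase, mt-Co1, the catalytic subunit of cytochrome c oxidase, was at 11300 ± 1771 CPM per kb in mutant iTregs, 9510 ± 571 in WT iTregs, 8428 ± 472 in mutant nTregs and 9993 ± 763 in WT nTregs (SD, n = 3). The ATP synthase subunit mt-Atp6 lay within that spread of mt-Co1 in 3 groups, at 9760 ± 1428, 8824 ± 697 and 9633 ± 620 CPM per kb in mutant iTregs, mutant nTregs and WT nTregs, and lay below it in WT iTregs (7554 ± 810). The complex I subunit mt-Nd6, the only minus-strand mRNA, was last in all 4 groups, at 266 ± 137 CPM per kb in mutant iTregs, 114 ± 19.4 in WT iTregs, 23.8 ± 6.67 in mutant nTregs and 27.8 ± 4.45 in WT nTregs. Next above it were mt-Nd3 and mt-Nd5, also of complex I, whose levels lay within each other's spread in all groups (in WT nTregs 1038 ± 58.3 and 999 ± 96.3 CPM per kb).

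**Figure D1:**
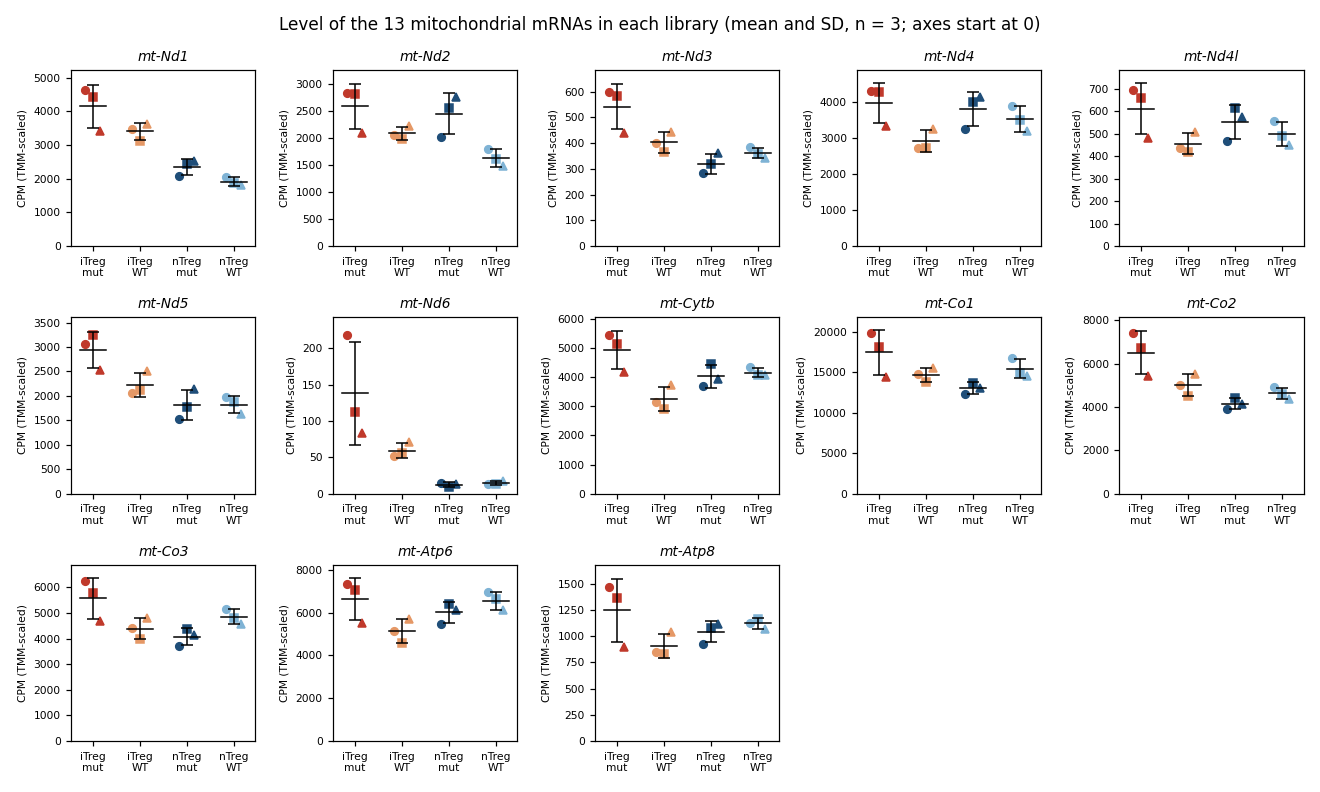
TMM-scaled CPM (y axis, from 0) of each mitochondrial mRNA in the 12 libraries, with mutant (mut) left of WT for iTregs and then nTregs; circles, squares and triangles are the libraries of a group in the order of their numbers, lines the mean and bars the SD (n = 3). In mutant iTregs the third library (number 4, triangle) is lowest in all 13 panels, and mt-Nd6 is at 8.42 to 17.1 CPM in nTregs against 51.5 to 219 CPM in iTregs.

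In iTregs, mutant cells had higher levels of most mitochondrial mRNAs than WT cells. Of 13 mRNAs, 10 rose and none fell (edgeR quasi-likelihood test, adjusted over all 17977 genes tested), where 14% of all genes tested rose. At an unadjusted p below 0.05 all 13 were higher and 0 lower, and DESeq2 also gave 10 higher and 0 lower. The median log2 fold change of the 13 was 0.40, beside 0.04 over all genes tested. The count depended on single libraries: 13 mRNAs rose without iTreg mutant library 4, 2 without mutant library 1 or 2, and 1 without WT library 1 or 2. It was 5 or 6 without any one of the WT nTreg libraries, which share the estimate of spread, 6 under RLE scaling, and 3 where library totals alone set the scale.

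The clearest change was in mt-Cytb, which encodes cytochrome b, the sole mitochondrially encoded subunit of complex III. It was at 5472, 5135 and 4201 CPM in mutant iTregs, against 3137, 2923 and 3733 CPM in WT iTregs. Every mutant library lay above every WT library. The log2 fold change was 0.60 ± 0.12 (SE, n = 3 each; adjusted p = 0.00458), and the call was kept with any of the 12 libraries left out (adjusted p 0.00186 to 0.0292).

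The largest fold change was that of mt-Nd6. It was at 219, 113 and 83.2 CPM in mutant iTregs, against 51.5, 55.3 and 70.5 CPM in WT iTregs. The groups did not overlap, and mutant library 1 was far above the other 2. The log2 fold change was 1.23 ± 0.30 (adjusted p = 0.0122), and 0.73 without that library. The call was lost without WT library 1 (adjusted p = 0.0631) or 2 (adjusted p = 0.0547).

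Among the other complex I subunits, mt-Nd4 was at 4306, 4275 and 3335 CPM in mutant iTregs, against 2729, 2735 and 3262 CPM in WT iTregs, with no overlap (0.45 ± 0.13, adjusted p = 0.024). The largest subunit mt-Nd5 was at 3065, 3240 and 2524 CPM in mutant iTregs, against 2051, 2118 and 2512 CPM in WT iTregs, again without overlap although 2 libraries nearly met (0.40 ± 0.13, adjusted p = 0.0453). The small subunits mt-Nd3 (0.42 ± 0.12, adjusted p = 0.0253) and mt-Nd4l (0.42 ± 0.14, adjusted p = 0.0452) also rose. For both, mutant library 4 lay within the WT range. The log2 fold changes of mt-Nd1 and mt-Nd2, 0.29 ± 0.12 and 0.31 ± 0.13, did not pass (adjusted p = 0.0874 and 0.107).

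Of the complex IV subunits, mt-Co2 and mt-Co3 rose, by 0.38 ± 0.11 and 0.34 ± 0.11 (adjusted p = 0.0293 and 0.0404), and mt-Co1 had 0.25 ± 0.11 (adjusted p = 0.127). For mt-Co2 the values were 7391, 6696 and 5435 CPM in mutant iTregs, against 5012, 4489 and 5503 CPM in WT iTregs. The groups overlapped, as they did for mt-Co3 and mt-Co1. Both ATP synthase subunits rose, mt-Atp6 by 0.37 ± 0.12 and mt-Atp8 by 0.46 ± 0.15 (adjusted p = 0.0366 and 0.0449), with overlapping groups.

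Neither rRNA passed in iTregs (log2 fold changes of -0.26 ± 0.16 for mt-Rnr1, of the small ribosomal subunit, and 0.12 ± 0.23 for mt-Rnr2, of the large subunit; adjusted p = 0.267 and 0.747). At an unadjusted p below 0.05, and with DESeq2, 0 of the 2 passed as well. Of 17 tRNAs kept by the filter on low counts, 2 rose in mutant iTregs, both on the minus strand, and none fell (0 also at an unadjusted p below 0.05 and with DESeq2). This is near the 14% of all genes tested that rose and is no result about tRNAs as a class. The gene mt-Tp was at 7.24, 5.62 and 2.31 CPM in mutant iTregs, against 2.04, 2.38 and 2.27 CPM in WT iTregs. One mutant library lay within the WT range (1.18 ± 0.36, adjusted p = 0.0315). The gene mt-Tc was at 2.47, 1.82 and 0.911 CPM in mutant iTregs, against 0.689, 0.687 and 0.946 CPM in WT iTregs (1.16 ± 0.34, adjusted p = 0.0326). Both calls were lost without iTreg mutant library 1 (adjusted p = 0.152 and 0.142) or 2 (0.09 and 0.0845), and without iTreg WT library 1 (0.116 and 0.119) or 2 (0.0879 and 0.114); that of mt-Tp was also lost without WT library 3 (0.0666), and that of mt-Tc with DESeq2 (0.0501).

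Beside these changes, RNAs retained in the nucleus (Malat1, Neat1, Kcnq1ot1 and Meg3) summed to 634 to 747 CPM in mutant iTregs and 813 to 1020 CPM in WT iTregs. The 8 B cell markers summed to 45.5 to 57.2 CPM in mutant iTregs and 63.3 to 74.7 CPM in WT iTregs, with 0 and 2 of the 8 at 0 throughout. The 10 myeloid markers summed to 5.83 to 6.87 CPM in mutant iTregs and 9.27 to 10.7 CPM in WT iTregs, with 4 of the 10 at 0 in both. Neither list overlapped between the genotypes. The 10 markers of CD8 T and NK cells summed to 39.4 to 55.6 CPM in mutant iTregs and 35.4 to 47.3 CPM in WT iTregs, with 2 of the 10 at 0 in both groups. The part of these RNAs in the mitochondrial changes was not tested.

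In nTregs the mRNAs did not move together. Of the 13, 1 rose (mt-Nd2) and none fell, where 34.9% of all genes tested passed in either direction, 19.3% rising and 15.6% falling. Without iTreg mutant library 4, 2 rose and 1 (mt-Co1, adjusted p = 0.0487) fell, and without nTreg mutant library 1 the count was 2. At an unadjusted p below 0.05, 2 were higher and 1 lower, and DESeq2 called 1 higher and 0 lower. The median log2 fold change of the 13 was -0.11, with 4 values above 0 and 9 below.

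Of the 32 members tested, 2 rose in mutant nTregs, mt-Nd2 and mt-Ti, and 0 fell, where 19.3% of all genes tested rose and 15.6% fell. The 2 genes lie near each other, but so few calls are no result about position, which was not tested. The complex I subunit mt-Nd2 was at 2027, 2552 and 2766 CPM in mutant nTregs, against 1798, 1608 and 1476 CPM in WT nTregs. No libraries overlapped (0.59 ± 0.13, adjusted p = 0.00559), and the call was kept with any library left out (adjusted p at most 0.0312). Its neighbour mt-Nd1 was at 2075, 2446 and 2540 CPM in mutant nTregs, against 2059, 1878 and 1816 CPM in WT nTregs. These groups barely separated and the change did not pass (0.30 ± 0.12, adjusted p = 0.0667), although it did without nTreg mutant library 1 (0.41, adjusted p = 0.0148) or iTreg mutant library 4 (adjusted p = 0.0273).

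Between these mRNAs lie 3 tRNA genes. The isoleucine tRNA mt-Ti was at 1.93, 2.44 and 2.77 CPM in mutant nTregs, against 0.95, 0.707 and 0.527 CPM in WT nTregs. Every mutant library was above every WT library (1.71 ± 0.45, adjusted p = 0.0115), and the call was lost without WT library 3 (adjusted p = 0.0519). The methionine tRNA mt-Tm was at 0.442, 0.776 and 1.34 CPM in mutant nTregs, against 0.509, 0.270 and 0.310 CPM in WT nTregs, with overlap, and did not pass (1.23 ± 0.45, adjusted p = 0.0504). The glutamine tRNA mt-Tq, on the opposite strand, was at most 0.155 CPM in any nTreg library (-0.58 ± 0.77, adjusted p = 0.591). Beyond these 3, mt-Tw (1.07 ± 0.54), mt-Tc (3.08 ± 1.59) and the threonine tRNA mt-Tt (1.17 ± 0.62) were also higher in every mutant library than in any WT library, without passing (adjusted p = 0.144, 0.156 and 0.157). Of the 32 members tested, 6 were higher and 2 lower without overlap. The share of all genes tested that separated in this way was not counted, so the separation adds no support. For mt-Tc the separation rests on 1 count in each mutant nTreg library against 0 in each WT nTreg library, so its fold change carries little weight. The first 2 bases of mt-Ti are shared with the end of mt-Nd1, and likewise those of mt-Tw with the end of mt-Nd2. Each read went to the gene it overlapped most.

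Other members were lower in mutant nTregs without passing. The subunit mt-Co1 was at 12270, 13720 and 13070 CPM in mutant nTregs, against 16790, 14940 and 14590 CPM in WT nTregs. These groups did not overlap (-0.25 ± 0.11, adjusted p = 0.111). For mt-Co3 the values were 3712, 4372 and 4156 CPM in mutant nTregs, against 5163, 4820 and 4589 CPM in WT nTregs, also without overlap (-0.25 ± 0.11, adjusted p = 0.0973). The remaining mRNAs had log2 fold changes of -0.23 to 0.15, among them mt-Cytb at -0.04 ± 0.12 and mt-Nd6 at -0.23 ± 0.32 (adjusted p = 0.795 and 0.602).

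The rRNAs mt-Rnr1 and mt-Rnr2 had log2 fold changes of -0.43 ± 0.17 and -0.33 ± 0.23 in nTregs (adjusted p = 0.0604 and 0.283). None was called by edgeR, 1 (mt-Rnr1) was lower at an unadjusted p below 0.05, and DESeq2 called mt-Rnr1 lower (adjusted p = 0.0315). So did edgeR without iTreg WT library 1 or 3, nTreg mutant library 4 or nTreg WT library 2 (adjusted p 0.0325 to 0.0496), and with no filter (0.0236) or scaling without the mitochondrial genes (0.049). Its values were 110, 124 and 145 CPM in mutant nTregs, against 214, 145 and 153 CPM in WT nTregs, with WT library 1 apart from the other 2.

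**Figure D2:**
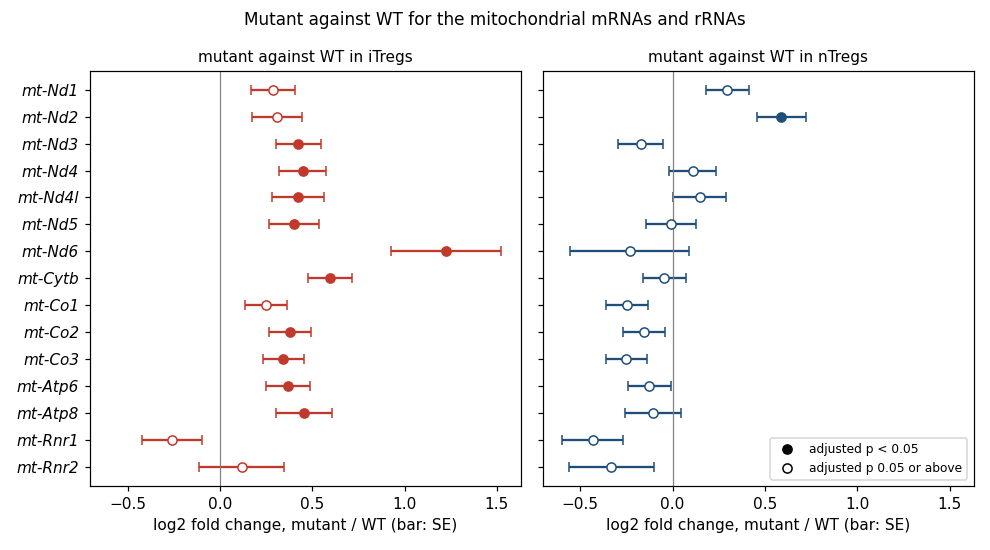
Fitted log2 fold change of mutant over WT (x axis, bars SE, edgeR) for the 13 mRNAs and 2 rRNAs, in iTregs (left) and nTregs (right); filled points passed at an adjusted p below 0.05. In iTregs all 13 mRNAs are right of 0 and 10 are filled, while in nTregs mt-Nd2 alone is filled and 9 mRNAs are left of 0.

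Beside the nTreg values, markers of CD8 T and NK cells were higher in mutant nTregs. The sums of B cell, erythroid and myeloid markers overlapped between the genotypes. The 10 CD8 T and NK cell markers, of which none was at 0 throughout a group, summed to 770, 141 and 134 CPM in mutant nTregs, against 67.4, 67.2 and 61.9 CPM in WT nTregs. The 8 B cell markers summed to 945 to 1623 CPM in mutant nTregs and 1509 to 1708 CPM in WT nTregs. The 7 erythroid markers summed to 180 to 904 CPM in mutant nTregs and 111 to 389 CPM in WT nTregs. The 10 myeloid markers summed to 23.3 to 47.3 CPM in mutant nTregs and 35.9 to 36.9 CPM in WT nTregs. The nuclear-retained RNAs summed to 1385 to 1649 CPM in mutant nTregs and 2444 to 2552 CPM in WT nTregs. Their part in the mitochondrial values was not tested. Without nTreg mutant library 1, which was highest in CD8 and NK markers and had the lowest mitochondrial share, mt-Nd2 had a log2 fold change of 0.74 (adjusted p = 0.000738). The other 2 mutant nTreg libraries, at 141 and 134 CPM, were also above every WT nTreg library in these markers. That fit therefore does not test their part.

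The difference between the mutant effects, iTreg minus nTreg, tests whether genotype acted unequally on a gene in the 2 cell types. Of 13 mRNAs, 5 had a larger mutant effect in iTregs and none a smaller one, where 6.12% of all genes tested had a larger one and 7.18% a smaller one. At an unadjusted p below 0.05 there were 8 larger and 0 smaller, and DESeq2 gave 7 and 0. The 5 were mt-Cytb (0.64 ± 0.17, adjusted p = 0.026), mt-Co3 (0.59 ± 0.16, adjusted p = 0.0289), mt-Nd3 (0.60 ± 0.17, adjusted p = 0.0405), mt-Nd6 (1.46 ± 0.44, adjusted p = 0.045) and mt-Co2 (0.53 ± 0.16, adjusted p = 0.0454). These counts rest on single libraries: with edgeR, 0 mRNAs passed without iTreg mutant library 1 or 2, iTreg WT library 1 or 2, or nTreg WT library 1 or 2 (7 or 8 at an unadjusted p below 0.05), 3 passed without nTreg mutant library 1, and 8 passed without iTreg mutant library 4. With library size alone as the scaling, 2 passed. The difference of mt-Nd2 did not pass (-0.28 ± 0.19, adjusted p = 0.35), nor did that of mt-Ti (-1.83 ± 0.60, adjusted p = 0.0622).

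Between the cell types most tRNAs and both rRNAs were higher in iTregs. In WT cells, iTregs against nTregs, 15 of 17 tRNAs and both rRNAs rose and none fell, while of 13 mRNAs 3 rose and 2 fell. Of all genes tested, 69.5% passed: 33.7% rose and 35.7% fell. The mRNA count was 3 in all without iTreg WT library 2 or nTreg WT library 1, and 8 with these 2 groups fitted alone. In mutant cells, where 68.2% of all genes tested passed, 33.2% rising and 35% falling, 14 of 17 tRNAs, both rRNAs and 8 of 13 mRNAs rose. None of these members fell in mutant cells, at an unadjusted p below 0.05 or with DESeq2 either, and for the tRNAs and rRNAs the same held in WT cells. The mutant and WT comparisons use separate libraries. Some tRNAs had almost no counts in nTregs and passed the filter on low counts through the iTreg libraries. Over the WT nTreg libraries mt-Ta, mt-Tn, mt-Tc and mt-Ty had 0 counts, and over the mutant nTreg libraries 1, 1, 3 and 2. Such tRNAs could only be called higher in iTregs, so the tRNA counts above are partly set by the filter.

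Markers of other cells moved with cell type. Over both genotypes the B cell markers summed to 45.5 to 74.7 CPM in iTregs and 945 to 1708 CPM in nTregs, and all 8 were lower in iTregs. The 7 erythroid markers summed to at most 0.108 CPM in iTregs and to 111 to 904 CPM in nTregs. The nuclear-retained RNAs summed to 634 to 1020 CPM in iTregs and 1385 to 2552 CPM in nTregs. Their part in the differences between the cell types was not tested.

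The mRNA with the widest gap was mt-Nd6. Its 51.5 to 70.5 CPM in WT iTregs compares with 13.5, 12.7 and 17.1 CPM in WT nTregs (log2 fold change 2.03 ± 0.32, adjusted p = 8.9e-05), and its 83.2 to 219 CPM in mutant iTregs with 14.9, 8.42 and 13.8 CPM in mutant nTregs (3.49 ± 0.33, adjusted p = 1.46e-06). The groups were far apart in both genotypes. The part of capture by the mRNA kit in this gap was not tested. The complex I subunit mt-Nd1 rose by 0.83 ± 0.12 in WT cells and 0.82 ± 0.12 in mutant cells (adjusted p = 4.11e-05 and 4.9e-05). Its neighbour mt-Nd2 rose in WT cells (0.36 ± 0.13, adjusted p = 0.0296), and its value in mutant cells was 0.08 ± 0.13 (adjusted p = 0.616). The call in WT cells was lost without iTreg WT library 1 or 3 or nTreg WT library 2 or 3 (adjusted p 0.0576 to 0.114), and with RLE scaling (0.0551).

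In WT cells mt-Atp6 fell by 0.35 and mt-Cytb fell by 0.35 in iTregs (SE 0.12 for both; adjusted p = 0.0172 and 0.0165). Both calls were lost without iTreg WT library 2 (0.0863 and 0.0825) or nTreg WT library 1 (0.0622 and 0.0555). The cytochrome b gene was at 3137, 2923 and 3733 CPM in WT iTregs, against 4356, 4067 and 4076 CPM in WT nTregs, without overlap. In mutant cells the sign was the other way, at 0.29 ± 0.12 (adjusted p = 0.0421), with overlapping groups. That call was lost without nTreg mutant library 1 (0.15, adjusted p = 0.274), and also without iTreg mutant library 1 or 2, nTreg mutant library 4, or nTreg WT library 1 or 2 (adjusted p 0.0521 to 0.16). Also in mutant cells mt-Co1 (0.42 ± 0.11), mt-Co2 (0.65 ± 0.11), mt-Co3 (0.45 ± 0.11), mt-Nd3 (0.76 ± 0.12) and mt-Nd5 (0.70 ± 0.14) were higher in iTregs (adjusted p at most 0.00526).

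The rRNAs are not polyadenylated to the same length as the mRNAs, so a poly(A)-based kit does not measure all rRNA in the cell. In these libraries mt-Rnr2 was at 1729, 1835 and 913 CPM in mutant iTregs, against 206, 247 and 303 CPM in mutant nTregs (2.57 ± 0.24, adjusted p = 1.44e-06). It was at 1477, 1334 and 1315 CPM in WT iTregs, against 397, 267 and 286 CPM in WT nTregs (2.12 ± 0.24, adjusted p = 5.73e-06). For mt-Rnr1 the log2 fold changes were 1.39 ± 0.17 in mutant cells and 1.21 ± 0.17 in WT cells. Per 1000 counts on mitochondrial mRNAs there were 32.5, 36.2 and 25.4 rRNA counts in mutant iTregs and 44.0, 41.4 and 33.5 in WT iTregs. There were 7.96, 8.04 and 9.92 in mutant nTregs and 12.2, 8.97 and 10.04 in WT nTregs, so no iTreg library met an nTreg library.

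Counts on tRNA genes were few, and reads of uncut precursors and of finished tRNAs are not told apart in them. In WT cells mt-Ta had 106 counts in the 3 iTreg libraries and 0 in the 3 nTreg libraries, which is at least 30.7-fold higher against a floor of 3 counts over the group. The same bound was at least 24.9-fold for mt-Tn, 23.7-fold for mt-Tc and 10.4-fold for mt-Ty, for tyrosine. These 4 genes form a minus-strand cluster between mt-Tw and mt-Co1. In mutant cells mt-Ta had 192 counts in iTregs and 1 in nTregs, a ratio of 211 with a 95% counting interval of 37.3 to 8360.

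On the plus strand, mt-Tw was at 27.0, 29.4 and 7.44 CPM in mutant iTregs, against 2.05, 1.83 and 1.98 CPM in mutant nTregs (3.45 ± 0.44, adjusted p = 1.9e-05). It was at 20.5, 17.4 and 21.4 CPM in WT iTregs, against 1.29, 1.11 and 0.403 CPM in WT nTregs (4.41 ± 0.49, adjusted p = 5e-06). The leucine tRNA mt-Tl1 rose by 2.81 ± 0.34 in mutant and 3.0 ± 0.36 in WT iTregs. The aspartate tRNA mt-Td, the most counted tRNA in nTregs, went its own way: it was at 26.0, 27.0 and 16.6 CPM in mutant iTregs, against 23.4, 46.7 and 51.0 CPM in mutant nTregs (-0.80 ± 0.38, adjusted p = 0.0779). In WT cells mt-Td was at 31.9, 17.3 and 41.9 CPM in iTregs, against 57.8, 42.7 and 23.0 CPM in nTregs (-0.44 ± 0.38, adjusted p = 0.316). The cell types overlapped in both genotypes. The serine tRNA mt-Ts1 did not pass in either genotype either (0.50 ± 0.47 in mutant and 0.65 ± 0.51 in WT cells).

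The 5 tRNAs that the filter removed were mt-Tf, mt-Th, mt-Ts2, mt-Tl2 and mt-Te, each at most 0.353 CPM in any library. They were removed for low counts and had no test.

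Counted by strand, the minus-strand genes took 3.62, 2.05 and 1.85 of every 1000 mitochondrial counts in mutant iTregs, against 1.26, 1.47 and 1.57 in WT iTregs. They took 0.397, 0.221 and 0.321 in mutant nTregs, against 0.287, 0.290 and 0.407 in WT nTregs. Mutant and WT libraries separated in iTregs and overlapped in nTregs, and every iTreg library was above every nTreg library. Nearly all of this was mt-Nd6, which had 3.43, 1.87 and 1.75 counts per 1000 plus-strand mRNA counts in mutant iTregs.

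**Figure D3:**
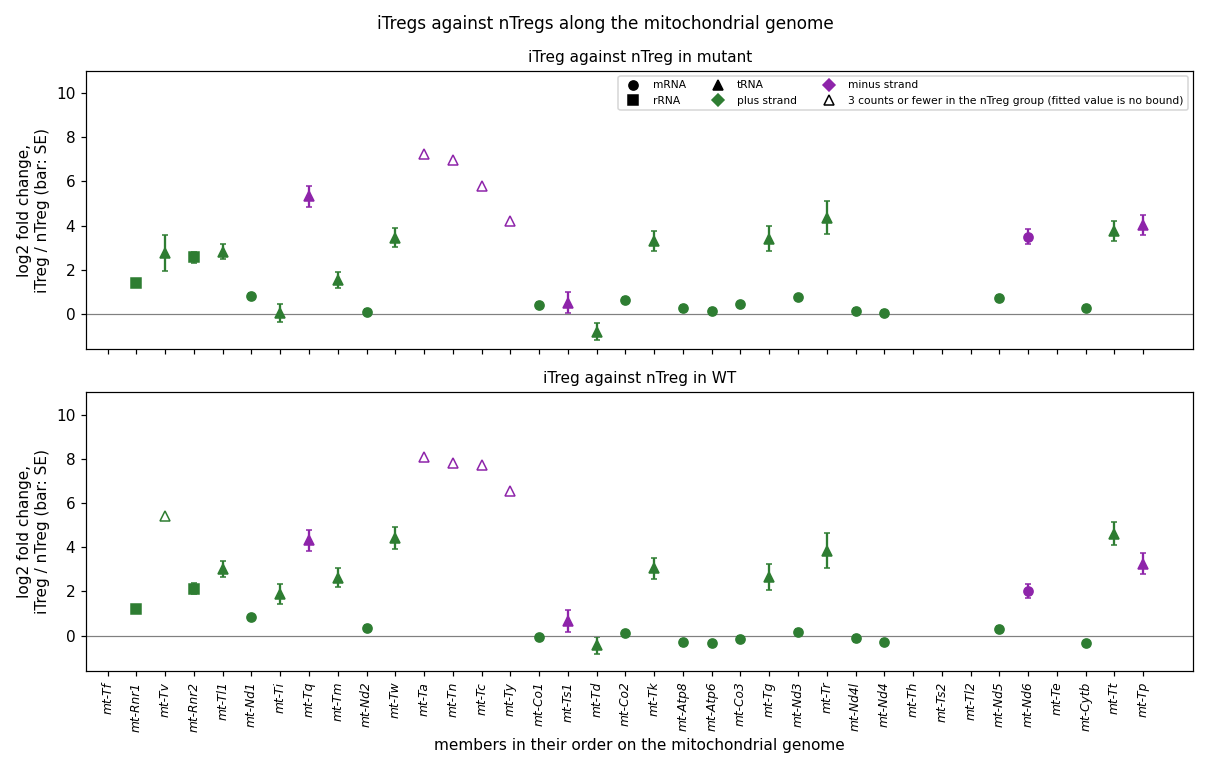
Fitted log2 fold change of iTregs over nTregs (y axis, bars SE, edgeR) for the 32 tested members, in their order on the mitochondrial genome, for mutant cells (top) and WT cells (bottom); shape gives the RNA class and colour the strand, and open points, drawn with no bar, have 3 counts or fewer in the nTreg group. The plus-strand mRNAs lie between -0.35 and 0.83, while mt-Nd6, the rRNAs and most tRNAs lie above 1.

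The share of each mRNA within the mitochondrial mRNA counts needs no scaling between libraries, and it is given as a description with no test. In nTregs the share of mt-Nd2 was 5.11%, 5.53% and 6.13% in the mutant, against 3.60%, 3.50% and 3.38% in WT. That of mt-Nd1 was 5.23%, 5.30% and 5.63% in mutant nTregs, against 4.12%, 4.09% and 4.16% in WT nTregs. Both separated the genotypes by more than the spread within either group. The share of mt-Co1 ran the other way, at 29.0% to 31.0% in mutant nTregs and 32.5% to 33.6% in WT nTregs. The shift was not confined to these genes. Also higher in mutant than in WT nTregs without overlap were mt-Nd4 (8.21% to 9.20% and 7.28% to 7.79%) and mt-Nd4l (1.175% to 1.328% and 1.03% to 1.114%). Lower without overlap were mt-Co3 (9.21% to 9.47% and 10.34% to 10.5%) and, barely, mt-Atp6 (13.58% to 13.89% and 13.9% to 14.43%).

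In iTregs the share of mt-Cytb was 8.54%, 8.52% and 8.82% in the mutant, against 7.05%, 7.06% and 7.63% in WT. That of mt-Nd6 was 0.342%, 0.187% and 0.175% in mutant iTregs, against 0.116%, 0.134% and 0.144% in WT iTregs. The share of mt-Nd2 overlapped, at 4.42% to 4.69% in mutant iTregs and 4.54% to 4.79% in WT iTregs. For mt-Nd1 the order was opposite to that in nTregs: 7.21% to 7.33% in mutant iTregs and 7.40% to 7.81% in WT iTregs. Also higher in mutant than in WT iTregs without overlap were mt-Nd4 (6.72% to 7.09% and 6.14% to 6.66%) and mt-Nd3 (0.92% to 0.97% and 0.88% to 0.91%). The share of mt-Co1 was lower without overlap, at 30.05% to 30.91% in mutant iTregs and 31.77% to 33.29% in WT iTregs. Shares sum to 100%, so a rise of one lowers the others.

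**Figure D4:**
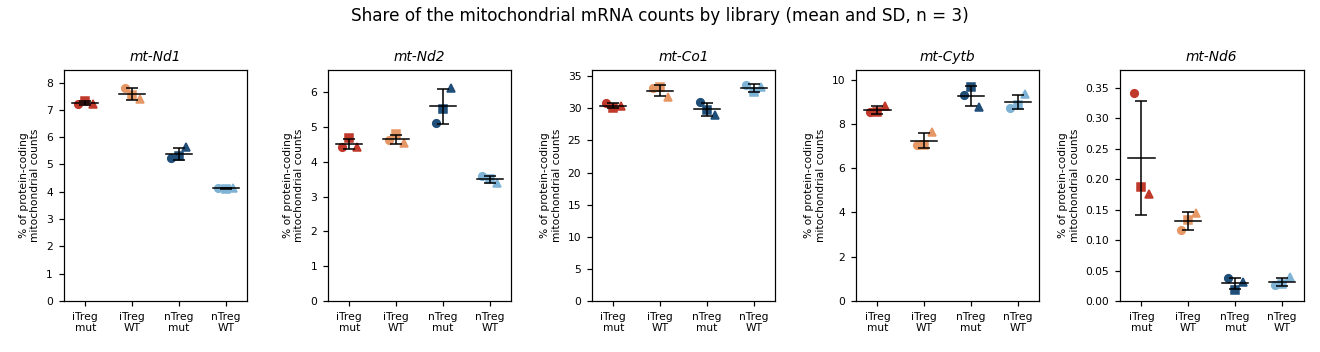
Share of 5 mRNAs in the counts of the 13 mitochondrial mRNAs (y axis, percent, from 0) in the 12 libraries, with mutant (mut) left of WT; points are libraries, lines means and bars SD (n = 3). The share of mt-Nd2 is 5.11% to 6.13% in mutant nTregs and 3.38% to 3.60% in WT nTregs, and that of mt-Cytb is 8.52% to 8.82% in mutant iTregs and 7.05% to 7.63% in WT iTregs.

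Part of the mitochondrial genome is copied on nuclear chromosome 1, where 7 pseudogenes match mt-Co1, mt-Co2, mt-Atp6, mt-Co3, mt-Nd3, mt-Nd4l and mt-Nd4 with 99.7% to 100% identity. Reads that align to both were counted at both. The copy of mt-Co3 had 1.0 times the counts of mt-Co3 in every library, and the pseudogenes together took 2.12% to 2.98% of all counts. In the stretches they share, reads of these 7 members cannot be told apart from those of their copies. The copy of mt-Co1 aligns over 483 of the 1545 bases of mt-Co1, and that of mt-Nd4 over 876 of 1378. The genes mt-Nd1, mt-Nd2, mt-Nd5, mt-Nd6 and mt-Cytb have no copy among the 7. No copy of mt-Atp8 is annotated among the 7 either, although it lies between mt-Co2 and mt-Atp6, which both have one. Its end, from 7927 to 7969, is shared with mt-Atp6, so mt-Atp8 cannot be taken as free of such reads. The chromosome 1 sequence between the pseudogenes was not compared with mt-Atp8 or with the tRNAs between these members. The first 90 bases of mt-Nd3 (chrM:9459-9548, plus strand) and of its copy Gm28438 (chr1:24613030-24613119, minus strand; GRCm38) show how little separates them, with the 1 base that differs in capitals.
mt-Nd3: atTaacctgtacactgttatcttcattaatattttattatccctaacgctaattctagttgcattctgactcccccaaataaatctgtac
Gm28438: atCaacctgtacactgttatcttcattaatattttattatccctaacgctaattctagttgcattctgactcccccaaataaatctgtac

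Counts in the nuclear gene lists are to be read against all genes tested, of which 14% rose and 11.4% fell in mutant iTregs, and 19.3% rose and 15.6% fell in mutant nTregs. Of 10 genes of mitochondrial transcription, 3 rose and 1 fell in mutant iTregs. The activator Tfb2m was at 26.7, 27.2 and 26.0 CPM in mutant iTregs, against 21.2, 21.3 and 20.7 CPM in WT iTregs, with no overlap (0.34 ± 0.07, adjusted p = 0.00405). The DNA-binding factor Tfam rose by 0.28 ± 0.09 (adjusted p = 0.0397), and Mterf4 by 0.33 ± 0.09 (adjusted p = 0.0201). The polymerase Polrmt fell, at 7.83, 6.72 and 9.96 CPM in mutant iTregs, against 13.4, 12 and 10.97 CPM in WT iTregs (-0.57 ± 0.16, adjusted p = 0.0216).

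In mutant nTregs 0 of the 10 rose and 3 fell: Mterf1a, Mterf1b and Mterf3, of a family that binds mitochondrial DNA or ribosomal RNA (-0.25 to -0.33). Mterf1a and Mterf1b are near-identical copies, so the split of reads between them is uncertain. Tfam, Tfb2m and Polrmt had log2 fold changes of 0.08, -0.15 and -0.12 there (adjusted p = 0.502, 0.086 and 0.578). The difference between the mutant effects passed for Tfb2m (0.49 ± 0.09, adjusted p = 0.00694).

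Of 33 genes of mitochondrial RNA processing and turnover, 8 rose and 1 fell in mutant iTregs, and 3 rose and 3 fell in mutant nTregs. The smallest adjusted p in iTregs were those of Pnpt1, which degrades and imports RNA (0.42 ± 0.08, adjusted p = 0.00476), and 1110008L16Rik, the symbol here of Prorp, the nuclease that cuts the 5′ ends of tRNAs (0.42 ± 0.09, adjusted p = 0.00799). The Prorp gene was at 22.2, 21.7 and 20.2 CPM in mutant iTregs, against 15.0, 15.1 and 17.8 CPM in WT iTregs. It also rose in mutant nTregs, at 10.6, 10.8 and 9.31 CPM, against 6.31, 6.60 and 6.60 CPM in WT nTregs (0.66 ± 0.10, adjusted p = 0.00062). Lrpprc, which stabilises mitochondrial mRNAs, did not pass (0.14 ± 0.08 in iTregs and 0.07 ± 0.08 in nTregs; adjusted p = 0.2 and 0.505).

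Of 18 genes that replicate and maintain mitochondrial DNA, 2 fell and 0 rose in mutant iTregs, and 3 fell and 1 rose in mutant nTregs. The shares that fell were near those of all genes. The mitochondrial thymidine kinase Tk2 fell in both (-0.65 ± 0.10, adjusted p = 0.00134, in iTregs, and -0.38 ± 0.09, adjusted p = 0.00831, in nTregs), as did the polymerase Polg in nTregs (-0.43 ± 0.08, adjusted p = 0.00161). The helicase Twnk did not pass (-0.02 and -0.18; adjusted p = 0.918 and 0.102). Of 12 regulators of mitochondrial biogenesis, 11 were tested. Of these, 1 rose and 2 fell in mutant iTregs, where Esrra and Ppargc1b fell by 0.71 and 0.76, and 1 rose and 2 fell in mutant nTregs. The coactivator Ppargc1a was at most 0.640 CPM in any library and was not tested.

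Set against their nuclear-encoded partners, the mitochondrial mRNAs gave different ratios by complex. In mutant nTregs all 11 nuclear subunits of complex IV rose, among them Cox6a1 (0.54 ± 0.08, adjusted p = 0.000443), while mt-Co1, mt-Co2 and mt-Co3 had log2 fold changes of -0.25 to -0.15. The ratio of summed mitochondrial to summed nuclear CPM per kb of complex IV was 27.2, 37.7 and 35.0 in mutant nTregs, against 53.7, 51.3 and 49.2 in WT nTregs. That of complex V was 11.7, 17.2 and 16.6 in mutant nTregs, against 21.0, 21.5 and 19.5 in WT nTregs. Neither overlapped.

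For complexes I and III the ratios of mutant and WT nTregs overlapped (11.3 to 16.9 in the mutant and 13.3 to 16.7 in WT for complex I). The overlap was slight for complex III, at 8.26, 12.4 and 10.5 in mutant nTregs, against 13.4, 12.6 and 12.3 in WT nTregs. Of the nuclear subunits, 17 of 36 of complex I, 5 of 9 of complex III and 13 of 18 of complex V rose in mutant nTregs, and 0 fell, where 19.3% of all genes rose and 15.6% fell. Over all 4 complexes the ratio was 14.7, 20.9 and 20.1 in mutant nTregs, against 25.7, 24.7 and 22.7 in WT nTregs, and leaving out nTreg mutant library 1 leaves the groups apart.

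In iTregs, where 14% of all genes rose and 11.4% fell, 9 of 36 of complex I rose and 4 fell, 4 of 9 of complex III rose, 5 of 11 of complex IV rose, and of 18 of complex V 4 rose and 2 fell. The mutant effect was smaller in iTregs, by the test of the difference, for 6 of 36 subunits of complex I and 3 of 9 of complex III. The same held for 1 of 11 of complex IV and 4 of 18 of complex V. It was larger in iTregs for 1 of the 9 of complex III and for 0 of the other 3 complexes. Of all genes tested, 6.12% had a larger effect and 7.18% a smaller one. The ratio over all 4 complexes was 20.8, 20.7 and 15.4 in mutant iTregs, against 16.7, 15.8 and 17.3 in WT iTregs. The groups overlapped through mutant library 4. For complex III, whose single mitochondrial subunit is cytochrome b, the ratio was 10.2, 10 and 7.81 in mutant iTregs, against 7.06, 6.59 and 7.83 in WT iTregs.

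**Figure D5:**
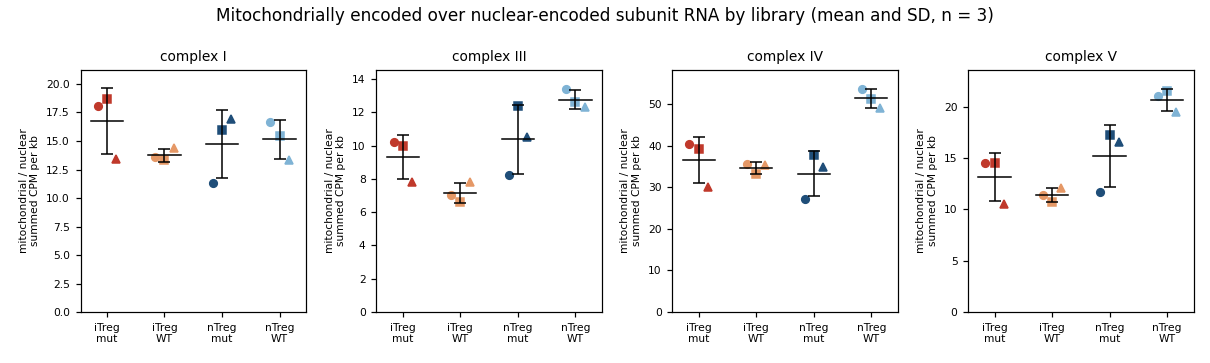
Ratio of summed mitochondrially encoded to summed nuclear-encoded subunit levels (y axis, CPM per kb over CPM per kb, from 0) for 4 respiratory complexes in the 12 libraries, with mutant (mut) left of WT; points are libraries, lines means and bars SD (n = 3). For complex IV mutant nTregs lie at 27.2 to 37.7 and WT nTregs at 49.2 to 53.7.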

How the data were processed

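The deposited files hold whole-number gene counts, which were used unchanged. The authors' counts came from featureCounts 1.5.2 with Ensembl release 87, per the file headers: reverse-stranded, exons summed by gene, each read given to its gene of largest overlap, and multi-mapping reads counted wherever they aligned. The submitters' processing notes name mm10, STAR 2.5.2b, bcl2fastq 2.18.0.12 and Subread 1.5.2, and the labels' protocols the TruSeq Stranded mRNA kit. Symbols, classes and sequences came from GENCODE M21 (GRCm38).

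Genes passing filterByExpr were tested with edgeR 4.0.16 (R 4.3.3), using TMM scaling, 4 group means with 8 residual degrees of freedom, a two-sided quasi-likelihood F-test and Benjamini-Hochberg adjustment over 17977 genes at a threshold of 0.05. Fold changes are fitted, with each SE derived from its F value. CPM are TMM-scaled, and CPM per kb divide by the gene length in the files. Of the 37 members, 32 were tested; shares and ratios had no test. The fit was tested on simulated data.

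The members and gene lists were chosen with earlier results of these data known. All mRNAs and rRNAs were named, tRNAs that passed for genotype or had the 3 highest mean counts, and in each nuclear list up to 3 genes of smallest adjusted p, plus Tfam, Polrmt, Tfb2m, Lrpprc, Twnk and Ppargc1a. The other tRNAs named were chosen after their values were seen. Also tried were scaling with RLE, with library totals alone and without mitochondrial genes, no filter, a filter of 1 CPM, DESeq2 1.42.0, fits of only the groups compared, a replicate block, and leaving out single libraries. Scaling without the nuclear copies too was chosen after seeing the data.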

Additional observations from a re-analysis of the deposited data

Results flagged for a closer look

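For 5 mRNAs the mutant effect in iTregs differed from that in nTregs by a test of the difference itself (edgeR, iTreg minus nTreg, log2 scale). These were mt-Nd6 (1.46), mt-Cytb (0.64), mt-Nd3 (0.60), mt-Co3 (0.59) and mt-Co2 (0.53). For mt-Cytb the mutant effect was 0.60 ± 0.12 in iTregs and -0.04 ± 0.12 in nTregs. For mt-Nd6 it was 1.23 ± 0.30 in iTregs and -0.23 ± 0.32 in nTregs. Of the 5, mt-Nd6 and mt-Cytb have no copy among the 7 nuclear pseudogenes, while mt-Nd3, mt-Co3 and mt-Co2 have one. These calls were lost in 10 of 12 leave-outs of a single library for mt-Nd6, in 8 for mt-Co2 and mt-Nd3, and in 6 for mt-Co3 and mt-Cytb.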

How the results depend on the processing

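Of 2176 values of single members under an alternative, 1923 kept their direction and their side of the threshold, 152 no longer passed, 54 newly passed and 47 changed sign. No sign change concerned a call. The cause of these changes was not tested. Depth limits the tRNAs, many of which had 0 to 3 counts over the nTreg libraries. Scaling by library size alone moved the median of all genes to -0.138 for the difference and -0.205 for mutant iTregs against nTregs, against -0.003 and -0.016 with TMM. Over the other alternatives these medians were -0.055 to 0.014 and -0.088 to -0.008.

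The number of mRNAs that passed for mutant against WT in nTregs was 1, and 2 with library size alone or no filter. In iTregs it was 10, and 6 with RLE scaling or a filter of 1 CPM, and 3 with library size alone. The difference had 5, and 2 with library size alone. WT iTregs against nTregs had 5, and 8 with the compared libraries alone. With each library left out, the counts were 1 to 3 (nTregs), 1 to 13 (iTregs), 0 to 8 (difference), 3 to 7 (WT iTregs against nTregs) and 7 to 10 (mutant iTregs against nTregs).

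Same-numbered libraries did not deviate together (correlations -0.064 to 0.05). This gives no sign that the numbers pair them but cannot exclude it, since the labels do not say what the numbers mark. With the replicate block, 3 mRNAs passed in iTregs and 1 in the difference. With it the signs of mt-Atp8 (0.0108), mt-Nd6 (0.0112) and mt-Cytb (0.0612) turned in nTregs, that of mt-Ti (0.0101) in iTregs, and that of mt-Ti (-0.0979) in mutant iTregs against nTregs.

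Library size alone turned mt-Nd5 (0.0403), mt-Cytb (0.00482) and mt-Td (0.0328) in nTregs, and, in mutant iTregs against nTregs, mt-Nd2 (-0.116), mt-Atp6 (-0.0486), mt-Nd4l (-0.049), mt-Nd4 (-0.131) and mt-Ti (-0.151, and -0.00478 with a filter of 1 CPM). Scaling without the mitochondrial genes turned the difference of mt-Nd1 (0.00816, and 0.00791 without their copies too).

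Leaving out single libraries turned signs within these ranges. In nTregs they were -0.171 to 0.132 for mt-Nd5, -0.147 to 0.0452 for mt-Cytb, -0.11 to 0.643 for mt-Tp and -0.341 to 0.298 for mt-Td. In iTregs they were -0.0584 to 0.373 for mt-Rnr2, -0.437 to 0.311 for mt-Ti, -0.000393 to 0.503 for mt-Tl1 and -0.2 to 0.51 for mt-Tw. For the difference they were -0.164 to 0.113 for mt-Nd1, -0.0244 to 0.356 for mt-Rnr1 and -0.552 to 0.112 for mt-Tl1. In mutant iTregs against nTregs they were -0.12 to 0.213 for mt-Nd2, -0.0416 to 0.298 for mt-Nd4l, -0.117 to 0.179 for mt-Nd4 and -0.265 to 0.484 for mt-Ti.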
